A study of Mus musculus with 3 samples.

Results

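The genes described here are Kdr, Flt1, Pecam1, Cldn5, Tek, Pdgfrb, Vwf and Vegfa, which mark the endothelium and pericytes of retinal blood vessels or encode the growth factor that drives them. They were taken as all probe sets of an Affymetrix U74Av2 array whose only gene symbol in the platform annotation was 1 of these 8 genes. The rule found 10 probe sets for the 8 genes, of 12422 gene probe sets for 8251 named genes in all. Flt1 and Vwf had 2 probe sets each and the other genes 1. The study profiled neural retina of Rp1 knockout mice (Rp1-/-) at postnatal day 10, on a mixed 129/SvEv and C57BL/6 background. Rp1 binds microtubules in the outer segment of photoreceptors. The targeted gene was not analysed here, so its loss was not checked. The data were 3 arrays in 1 group, each from RNA of a pool of 3 to 4 mice whose retinas were collected between 1 and 2 pm. Every pool carried the knockout and no control genotype was analysed here, so the only comparisons are between pools of mutant retina. The labels number no replicates, so the pools were numbered 1 to 3 in accession order as names only. The title of the first lacks a genotype tag that the other two carry, and its description, which gives the knockout, was followed. Nothing says whether pools shared litters, and the spread between pools measures only the spread between these 3 RNA samples.

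Retinal vessels grow into the mouse retina after birth. A superficial layer spreads from the optic nerve over a network of astrocytes, and sprouts from it then descend to form the deeper layers. Vegfa, secreted by astrocytes and Müller glia in tissue short of oxygen, signals mainly through Kdr (VEGF receptor 2), while Flt1 (VEGF receptor 1) binds the same ligand tightly and acts largely as a decoy. Tek (Tie2) is the angiopoietin receptor that steadies the vessel wall. Pdgfrb is the receptor by which pericytes are recruited to new vessels.

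Signals are in the scaled intensity units of the deposited table. As background, each array had a floor, the 90th percentile over 19 control probe sets for bacterial and yeast transcripts. It was 100.5, 124.8 and 120.4 for pools 1, 2 and 3. A probe set is called measured where its mean signal exceeded the mean floor of 115.2. Probe sets differ in how strongly they bind, so no level of one gene was set against that of another. Mean signal served only to choose 1 probe set per gene and which list genes to name. The arrays were alike in median signal, from 232.9 to 233.8, and Pearson's r of log2 signal across the 8327 measured probe sets (genes, not replicates) lay between 0.904 and 0.910. At most 9 probe sets had the same signal on any 2 arrays. All 11 rod genes listed as a check of the labelled tissue and present on the array were measured. The pools did stand apart elsewhere. The summed signal of 12 lens genes came to 94951, 25486 and 203758 in pools 1, 2 and 3. Xist, expressed from the inactive X chromosome, had 69.5 in pool 1 against 1384.4 and 1543.7 in pools 2 and 3, and Prph2, a photoreceptor disc protein, had 9356.3 against 1469.1 and 1332.3. RNA integrity was gauged from control probe sets by dividing 3' signal by 5' signal. Actb gave 1.10, 1.40 and 1.63 in pools 1, 2 and 3. Gapdh did not share this order, with 0.82, 0.90 and 0.75, and was lowest in pool 3. The part of these differences in the results below was not tested.

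Of the 10 probe sets, 5 lay above the floor on all 3 arrays, a share near the 57.9% of all gene probe sets that did. These 5 were Kdr, Pecam1, Cldn5, Vegfa and 1 of the 2 probe sets of Flt1. With the second Flt1 probe set, 6 probe sets of 5 genes were measured. That second set passed only through its signal in pool 1. Tek, Pdgfrb and both Vwf probe sets were not measured. In this bulk tissue, fewer cells of a type and less RNA per cell cannot be told apart.

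**Figure D1:**
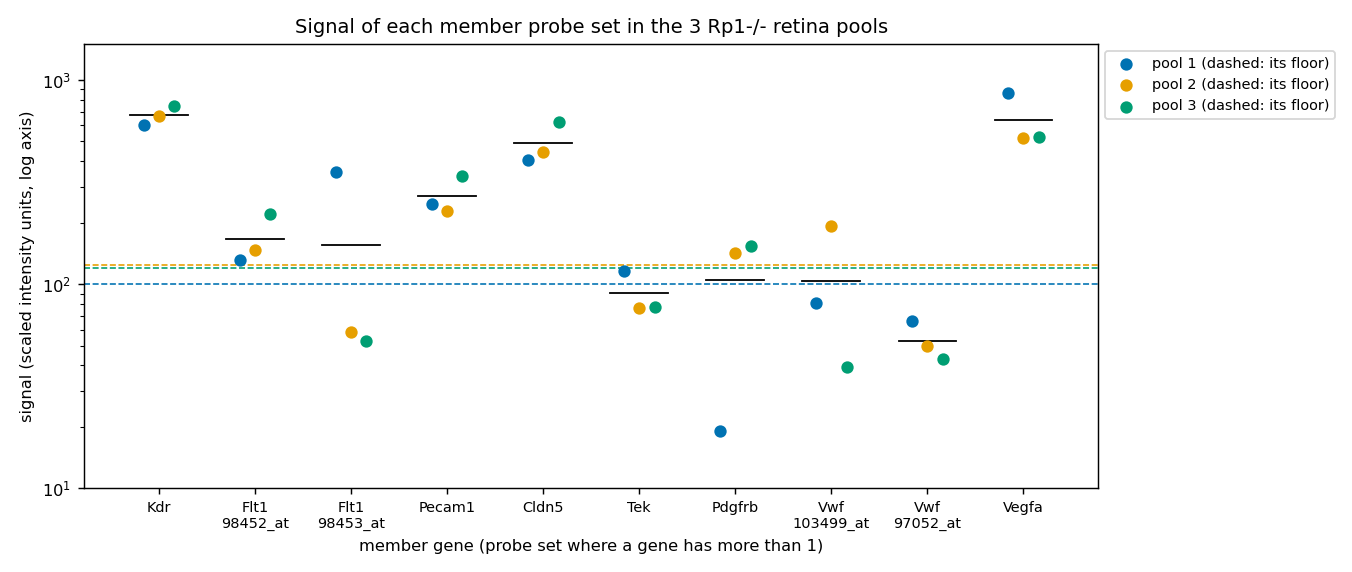
Signal of each of the 10 probe sets (log axis, scaled intensity units), with 1 point per pool, a bar at the mean of the 3 pools and a dashed line at each pool's background floor. Kdr, Pecam1, Cldn5, Vegfa and the Flt1 probe set 98452_at lie above the floor in all pools, while Tek, Pdgfrb and Vwf cross it or lie under it.

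Among the VEGF receptors, Kdr, which transmits most of the growth signal in endothelial cells, was the steadiest of the 6 measured probe sets. Its signal was 604.1 in pool 1, 662.6 in pool 2 and 744.2 in pool 3, a mean of 670.3 ± 70.4 (SD, n = 3), or 5.82 times the mean floor. The highest pool was 1.23-fold above the lowest. The median of this ratio over the 7198 probe sets above the floor on all arrays was 1.39-fold. The SD of log2 signal between pools was 0.15, against 0.28 fitted for probe sets of like signal.

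Flt1, the decoy receptor, gave different answers from its 2 probe sets. Probe set 98452_at read 132.0, 147.1 and 220.5 in pools 1, 2 and 3. Its mean was 166.5 ± 47.3 (SD, n = 3), or 1.45 times the mean floor. All pools were above the floor and pool 3 was highest, 1.67-fold above pool 1. Probe set 98453_at had 354.1 in pool 1, and 58.4 and 52.5 in pools 2 and 3, which lie under the floor. Pool 1 was therefore at least 2.84-fold above pool 2 and at least 2.94-fold above pool 3 by this set. The pool that was highest by one probe set was lowest by the other, so no order of the pools can be given for the gene. The SD of log2 signal was 0.39 for the first set (fitted 0.41) and 0.88 for the second (fitted 0.42). Since the second set counted as measured only through pool 1, nothing is read from its test.

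Of the vessel wall genes, Pecam1 (CD31), an adhesion molecule at contacts between endothelial cells, had signals of 246.5, 229.2 and 337.0 in pools 1, 2 and 3. Its mean was 270.9 ± 57.9 (SD, n = 3), or 2.35 times the mean floor. Pool 3 was highest, 1.47-fold above pool 2, and pools 1 and 2 differed by 1.08-fold. Cldn5, the main claudin of the tight junctions that form the blood-retina barrier, had 404.3, 445.5 and 621.4. Its mean was 490.4 ± 115.3 (SD, n = 3), 4.26 times the mean floor. Pool 3 was again highest, 1.54-fold above pool 1. Pools 1 and 2 differed by 1.10-fold. Between-pool SDs on the log2 scale were 0.30 for Pecam1 (fitted 0.39) and 0.33 for Cldn5 (fitted 0.30).

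Vwf, the clotting glycoprotein stored in endothelial granules, was near or under the floor. Probe set 103499_at had 80.6, 191.9 and 39.4 in pools 1, 2 and 3. Pool 2 alone exceeded the floor, and was at least 1.91-fold higher than pool 1 and at least 1.59-fold higher than pool 3. Probe set 97052_at had 66.0, 49.7 and 42.8, under the floor in all pools. Tek had 116.3, 76.7 and 77.4, just above the floor in pool 1 and under it in the other pools, which gives no fold between pools. The 3 probe sets give bounds on signal and do not show that the transcripts were absent.

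Pdgfrb, the only pericyte gene among the 8, had signals of 19.1, 141.7 and 153.9 in pools 1, 2 and 3. Pools 2 and 3 were above their floors and differed by 1.09-fold. Pool 1 was under its floor, so pool 2 was at least 1.41-fold and pool 3 at least 1.53-fold higher. Its mean of 104.9 fell short of the mean floor, and it was not tested. Among 17 other genes of the PDGF and mural cell list, with 1 probe set each, 7 were under the floor in pool 1, 8 in pool 2 and 4 in pool 3. Of all gene probe sets, 69.7%, 65.5% and 66.2% were above the floor in pools 1, 2 and 3. Of the 7 mural list genes under the floor in pool 1, 4 were above it in pool 3, as Pdgfrb was. They are named for this, after their values were seen. The share of all gene probe sets that were under the floor in pool 1 and above it in pool 3 was not counted. Nothing is therefore read from the 4. Acta2, the smooth muscle actin, had 81.9, 126.9 and 143.7, and Myh11, the smooth muscle myosin, had 34.8, 115.8 and 156.2. Abcc9, a potassium channel subunit of pericytes, had 23.1, 86.6 and 141.7, and Anpep, a peptidase of pericytes and other cells, had 64.5, 39.6 and 128.5. Conversely, 1 gene of the list, the potassium channel gene Kcnj8 (108.7, 24.0 and 50.2), was above the floor in pool 1 and under it in pool 3. Tagln of the same list, named after its values were seen, was above the floor in all pools. It was highest in pool 1 and lowest in pool 3 (165.5, 146.0 and 128.5). Rgs5, a regulator of G protein signalling typical of pericytes and also singled out after its values were seen, was above the floor in pool 1 by both of its probe sets. They read 350.4, 359.6 and 508.1, and 192.4, 192.5 and 118.9, the last under the floor.

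Vegfa, the ligand, was highest in pool 1. It read 860.0 there, with 518.5 in pool 2 and 522.7 in pool 3, and its mean was 633.7 ± 196.0 (SD, n = 3), or 5.50 times the mean floor. Pool 1 was 1.66-fold above pool 2 and 1.65-fold above pool 3, while pools 2 and 3 differed by 1.01-fold. The SD of log2 signal was 0.42, against a fitted 0.28. Vegfa did not vary beyond the intensity trend (limma, unadjusted p = 0.152, adjusted p = 0.987).

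The stretches before the start sites of Vegfa and Cldn5 are shown because these genes had opposite extremes, pool 1 for Vegfa and pool 3 for Cldn5. The arrays measure transcripts and not promoters. Of the 8 genes, 5 had an entry in the RefSeq promoter table (GRCm38.p6). Of these, Vegfa and Cldn5 are the genes whose upstream window lies outside the annotated span of the gene itself. Each sequence is the 250 bases before the start, read 5′ to 3′ on the gene's strand, at chr17:46032378-46032627 (minus strand) for Vegfa and chr16:18776597-18776846 (plus strand) for Cldn5. Capitals mark GGAA on either strand, the core of sites for ETS factors, a family with many members active in endothelium.
Vegfa: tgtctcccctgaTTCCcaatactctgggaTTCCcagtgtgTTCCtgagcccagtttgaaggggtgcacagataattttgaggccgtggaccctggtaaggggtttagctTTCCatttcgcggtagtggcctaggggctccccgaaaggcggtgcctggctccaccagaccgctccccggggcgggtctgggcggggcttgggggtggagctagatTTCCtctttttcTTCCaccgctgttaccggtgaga
Cldn5: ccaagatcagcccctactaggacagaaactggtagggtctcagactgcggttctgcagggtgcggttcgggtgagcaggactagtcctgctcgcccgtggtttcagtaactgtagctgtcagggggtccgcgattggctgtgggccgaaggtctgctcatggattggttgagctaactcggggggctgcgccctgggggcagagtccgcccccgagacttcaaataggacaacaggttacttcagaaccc

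The Vegfa window held 6 matches to GGAA, all on the opposite strand, and the Cldn5 window held 0. Over the 32851 windows of this length in the table, 93.4% held at least 1, the median was 3, and 8.69% held at least 6. The hypoxia response core was searched as ACGTG and GCGTG on both strands. Neither window held either, while 16.6% of all windows held ACGTG and 28.2% held GCGTG. A missing match says only that these letters are not in this window. GC content was 59.2% for Vegfa and 59.6% for Cldn5, against a median of 52.4%.

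Across the measured probe sets, 4 of 6 were highest in pool 3 (Kdr, Flt1 98452_at, Pecam1 and Cldn5), where 32.2% of all measured probe sets were highest. The other two, Vegfa and Flt1 98453_at, were highest in pool 1, where 34.1% of all measured probe sets were, and the Flt1 set counted as measured only through that pool. None was highest in pool 2, against 33.7%. Taking for each gene the probe set with the highest mean, the 5 measured genes had a median log2 difference of -0.45 between pools 1 and 3 (pool 1 minus pool 3). It was -0.48 for pool 2 minus pool 3. The medians over all 6210 measured genes were 0.00 and 0.01. For pool 1 minus pool 2 it was -0.13 against 0.00. Each pair of pools is 1 array against 1, so these differences have no replicate check.

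The number of members beyond 2-fold was 1 of 6 for pool 1 against pool 2, 1 for pool 1 against pool 3 and 0 for pool 2 against pool 3. The shares over all measured probe sets were 6.24%, 6.92% and 5.1%. In both cases the 1 was the Flt1 probe set 98453_at, which pool 1 alone brought among the measured. Of the 5 probe sets above the floor on all arrays, 0 were beyond 2-fold in any pair. None of the 6 varied between pools beyond the intensity trend (limma, adjusted p under the threshold of 0.05), and 0.216% of all measured probe sets did. That share is 18 of 8327 probe sets, and it rests on single pools, with 40 called without pool 1, 10 without pool 2 and 4 without pool 3. The 5 members above the floor on all arrays had adjusted p from 0.987 to 0.996, and 0 of these 5 had an unadjusted p under 0.05 (limma). An ordinary, not robust, fit (limma) likewise called 0 of the 6. Of the 6, 3 had an SD under the fitted one for their signal (Kdr, Pecam1 and Flt1 98452_at), and so had 60.3% of all measured probe sets.

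**Figure D2:**
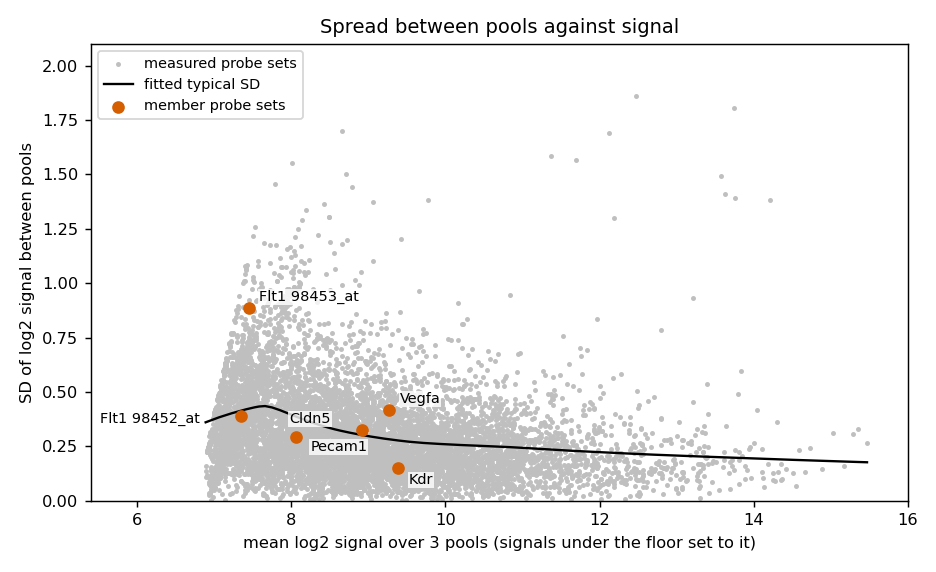
SD of log2 signal between the 3 pools (vertical) against mean log2 signal (horizontal) for the 8327 measured probe sets in grey, with the typical SD fitted by limma as a line and the 6 measured member probe sets in orange. Kdr lies under the line at 0.15, Vegfa over it at 0.42, and the Flt1 probe set 98453_at farthest from it at 0.88.

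Other genes of the vascular pathways were taken from 10 lists. Of 164 genes listed, 136 had a probe set, 97 were measured and 85 were above the floor in all pools. Over the whole array, 6210 of 8251 genes with a probe set were measured, the background for the counts of each list below. By limma's adjusted p, 0 of the 97 varied between pools beyond the trend. With an unadjusted p under 0.05 there were 5, or 5.15%, against 5.34% of all measured probe sets. Pool 3 was highest for 27 of the 97 (27.8%), pool 1 for 32 and pool 2 for 38.

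**Figure D3:**
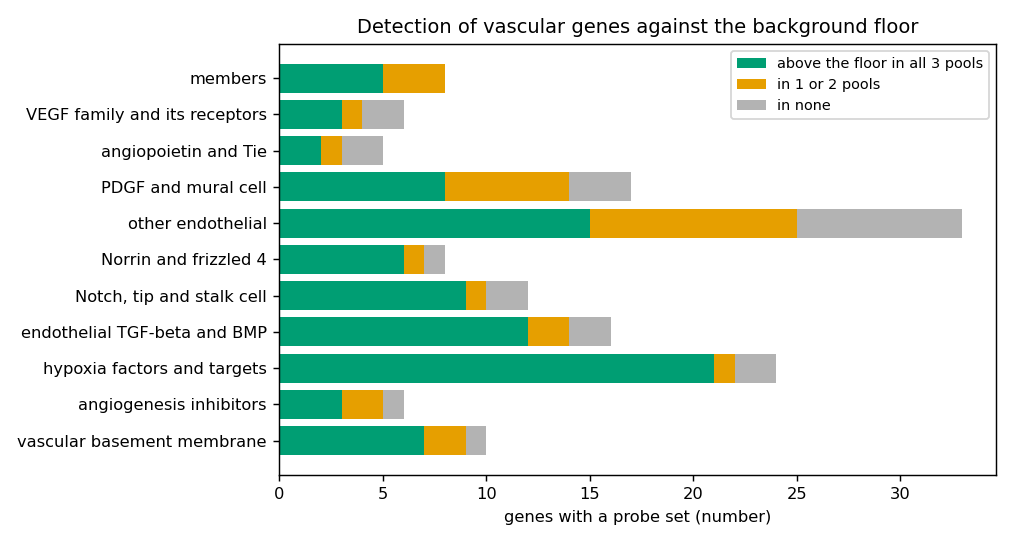
Number of genes with a probe set in the 8 genes described here ("members") and in each of the 10 lists, split by whether the signal was above the background floor in all 3 pools, in 1 or 2, or in none. Of the 33 further endothelial genes 15 were above it in all pools and 8 in none.

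Among the remaining ligands and receptors of the VEGF family, 4 of 6 genes were measured. Vegfb, a ligand of Flt1, had 888.6, 840.2 and 684.9 in pools 1, 2 and 3. Nrp1, a co-receptor of Kdr, had 358.9, 410.1 and 308.1, and its second measured probe set was also highest in pool 2 (167.7, 245.3 and 187.0). Flt4, the receptor of lymphatic growth factors that is also present on sprouting vessels, had 191.3, 257.8 and 143.1. Vegfc and Vegfd, the ligands of Flt4, were under the floor in all pools. Over these 4 genes the median difference between pools 1 and 3 (pool 1 minus pool 3) was 0.30 on the log2 scale, where the 5 members had -0.45.

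In the angiopoietin and Tie list 3 of 5 genes were measured. Angpt2, which loosens vessels by opposing Tie2 signalling, had 114.0, 191.2 and 184.5, above the floor in every pool. Tie1, an orphan partner of Tie2, had 210.8, 123.8 and 118.3 and was above it in pool 1 alone. Angpt1, the activating ligand of Tie2 made by mural cells, was under the floor in all pools. Angptl4, an angiopoietin-like protein, was highest in pool 2 by one probe set (208.0, 413.7 and 243.6) and lowest there by another (211.9, 127.2 and 271.5).

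In the PDGF and mural cell list 10 of 17 genes were measured. Of these 10, 6 were highest in pool 3, against 32.2% of all measured probe sets. On the log2 scale the median of pool 1 minus pool 3 was -0.39, and that of pool 2 minus pool 3 was -0.19. Over all measured genes these medians were -0.002 and 0.008. Pdgfra, the receptor on the astrocytes that precede the vessels, had 986.1, 788.0 and 1173.4. Its ligand Pdgfa, made by retinal neurons, had 704.2, 652.7 and 745.6. Vtn (vitronectin) had 390.8, 752.9 and 582.5. None of these passed the test (limma, adjusted p from 0.987 to 0.996).

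Of the further endothelial genes 21 of 33 were measured, with 9 highest in pool 1, 7 in pool 2 and 5 in pool 3. Eng (endoglin), a co-receptor for TGF-beta family ligands, had 702.1, 583.7 and 964.7. Slc2a1, the glucose transporter of barrier endothelium that many other retinal cells also express, had 1141.9, 937.6 and 1337.6. Tjp1 (ZO-1), a junction scaffold of both endothelium and neural retina, had 1239.5, 1338.1 and 1441.5. Each of these 3 was highest in pool 3. Cdh5 (VE-cadherin), a defining endothelial gene singled out after its values were seen, had 113.2, 173.7 and 96.3 and was under the floor in pool 3. The genes with an unadjusted p under 0.05 in this list were Cav1 (307.7, 600.5 and 232.9) and Ramp2 (112.4, 314.3 and 351.8), with adjusted p of 0.833 and 0.832 (limma). A second measured probe set of Cav1 gave another order. It was lowest in pool 2, where it was under the floor, and highest in pool 3 (108.4, 93.1 and 172.9).

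The Norrin pathway, in which Müller glia signal through frizzled 4 to build the retinal vessels and their barrier, had 6 of 8 genes measured, each above the floor on every array. The receptor Fzd4 had 915.8, 793.1 and 940.1, and the transcription factor Lef1 588.9, 759.9 and 554.8. Ctnnb1 (beta-catenin) had 4594.8, 4848.9 and 4288.2. The co-receptor Lrp5 was under the floor in all pools. Of the 6, 5 were highest in pool 2, against 33.7% of all measured probe sets. Their median was -0.45 on the log2 scale for pool 1 minus pool 2, against -0.003 over all measured genes. This compares 1 array with 1 and was not tested.

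Notch genes, which set tip and stalk cells in a sprout, were measured for 10 of 12. Notch1 had 1120.3, 742.4 and 606.3 and its target Hes1 737.0, 480.5 and 499.1, both highest in pool 1, and both are also expressed by retinal progenitors and glia. Apln, a peptide of tip cells, had 487.1, 671.7 and 549.8, while its receptor Aplnr was under the floor in all pools. Sema3e, a repellent of vessels that was under the floor in pool 1, had 56.0, 323.7 and 182.6 and an unadjusted p under 0.05 (limma, adjusted p = 0.911).

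Of the TGF-beta and BMP list 12 of 16 genes were measured, each above the floor on every array. Smad1, a BMP effector, had 1591.0, 1180.4 and 898.3, Id3 634.6, 871.9 and 853.2, and Id2 496.6, 1103.9 and 603.3. Id2 had an unadjusted p under 0.05 (limma, adjusted p = 0.832).

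Vegfa is a classical target of the hypoxia-inducible factors, and other hypoxia genes were measured for 21 of 24. Each of the 21 exceeded the floor on every array. Pool 1 was highest for 6, pool 2 for 7 and pool 3 for 8. Their median log2 difference from pool 2 to pool 1 (pool 1 minus pool 2) was 0.17, where Vegfa had 0.73. For pool 1 minus pool 3 it was 0.01, where Vegfa had 0.72. Hif1a, the oxygen-regulated subunit, had 12377.1, 12737.8 and 16567.9. Ldha, a glycolytic target, had 16469.4, 14653.3 and 16792.9, and Aldoa 11223.0, 9973.8 and 12710.4. A second measured probe set of Aldoa was instead lowest in pool 1 (2628.2, 4122.8 and 4290.3). Epas1 (HIF-2 alpha) and Adm were under the floor in all pools. The median SD of the 21 genes was 0.23 on the log2 scale.

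**Figure D4:**
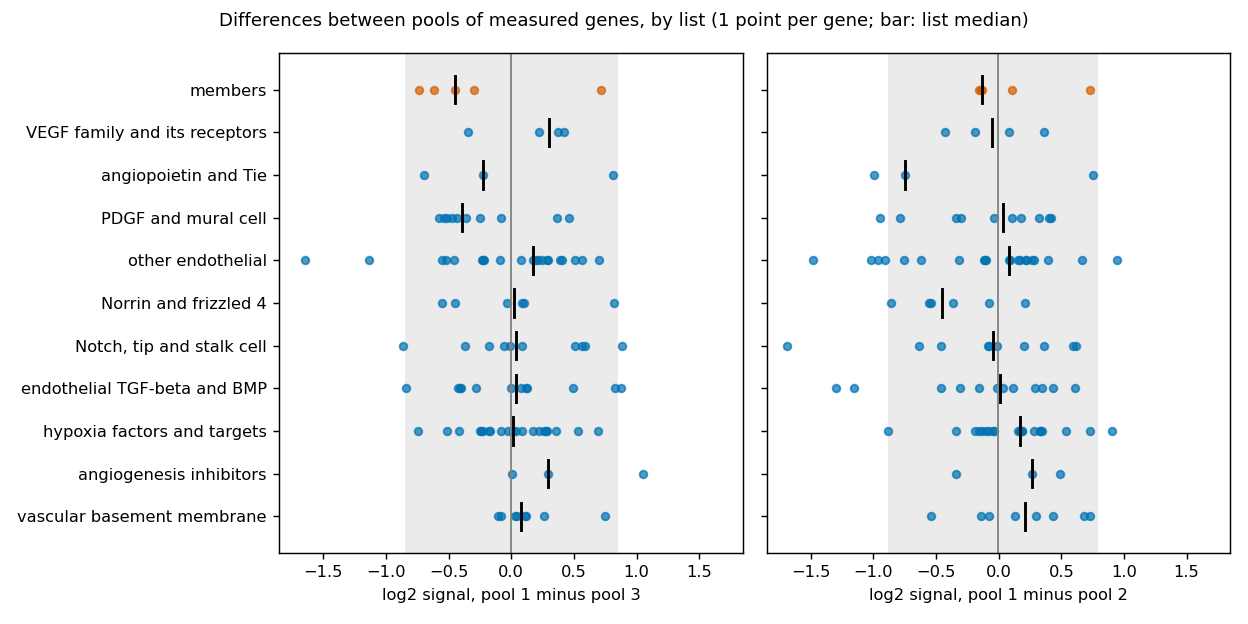
Log2 signal of pool 1 minus pool 3 (left) and pool 1 minus pool 2 (right) for measured genes, 1 point per gene, with the list median as a bar. The grey band holds the central 90% of all 6210 measured genes. Of the 5 members in orange, 4 lie to the left of 0 for pool 1 minus pool 3 and Vegfa lies at 0.72.

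Genes of the vessel's surroundings were as follows. The basement membrane list had 8 of 10 genes measured. Col4a1 and Col4a2, the chains of vascular type IV collagen, had 1646.6, 1216.6 and 1767.0, and 1862.0, 1125.0 and 1969.2. Both were lowest in pool 2 and highest in pool 3, the order of all 11 measured lens genes. Other genes named above had this order too, among them Pecam1, Eng, Slc2a1, Pdgfra, Pdgfa, Fzd4 and Ldha. The share of all measured probe sets with this order was not counted, so nothing is read from the likeness. Fn1 (fibronectin) had 739.6, 602.9 and 725.1. Of the angiogenesis inhibitors 3 of 6 were measured. Col18a1, the source of endostatin, had 1723.4, 1227.7 and 829.3, with an unadjusted p under 0.05 (limma, adjusted p = 0.833). Pool 1 was highest in 3 of its 4 other measured probe sets. Among these 3, the sets with 410.9, 94.3 and 103.7, and with 199.0, 102.1 and 94.0, counted as measured only through pool 1. Nothing is read from their order. Of the sets above the floor in all pools, pool 1 was highest where the signals were 448.7, 255.7 and 216.3. Pool 3 was highest where they were 184.6, 145.5 and 199.6. Sparc had 1401.5, 1164.0 and 1142.2, and Timp3 302.2, 381.7 and 301.4.

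Markers of other cells were set beside the vascular genes. In pool 3, where Kdr, Pecam1 and Cldn5 were highest, lens genes were highest for 11 of 11 measured, and the summed signal of 5 pigment epithelium and melanocyte genes was 2089.9, against 1110.2 and 1164.3 in pools 1 and 2. Of the pigment genes, Pmel had 319.7, 327.7 and 908.0, and all 3 measured were highest in pool 3. The 3 platelet genes summed to 350.4, 499.6 and 868.0. Of these, Gp9 had 53.8, 53.5 and 367.9, above the floor in pool 3 alone, while Gp1bb was highest in pool 2 (269.5, 360.9 and 325.3). The summed red cell signal ran the other way from these sums, at 20651, 12963 and 10753 over 5 genes. Hba-a1, highest in pool 1, had 16422.3, 9461.1 and 8110.5. Of the 4 measured red cell genes 3 were highest in pool 1, while Slc4a1 was highest in pool 3 (48.1, 140.0 and 179.1). The 10 microglial genes summed to 3079, 3001 and 3195, the 6 fibroblast genes to 2285, 2969 and 2697, and the 6 skeletal muscle genes to 618.0, 717.7 and 620.8. The 10 Müller glia and astrocyte genes, among them the cells that secrete Vegfa, summed to 20846, 18950 and 20384. On the log2 scale their median was -0.16 for pool 1 minus pool 2. Pool 1 minus pool 3 gave -0.01. In the lens, blood, pigment and platelet lists no gene was under the floor in all pools. The marker genes that were under it in all pools were Lyz2 and Ptprc of the microglial list, Vim of the glial list, and Myh1, Tnni2 and Tnnt3 of the muscle list. The part of these cells in the vascular signals was not tested.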

How the data were processed

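RNA of 3 pools of Rp1-/- retina was measured on 3 arrays. The values deposited by the authors are linear intensities, with each array already scaled as a whole. Means after trimming 2% at each end were 499.9 on each array. The sources used here do not name their software or background correction, and they were not scaled again. Of 12488 probe sets (1 blank row was dropped), 66 are controls. The platform annotation gave 1 symbol to 10833 of the rest, several to 396 and none to 1193, and 10817 symbols were updated through a mouse gene table (GRCm38.p6).

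Signals under an array's floor were raised to it before log2 was taken. Where a gene had several probe sets, that of highest mean signal stood for it. The test of variability (limma 3.58.1, R 4.3.3) fitted an intercept, then a robust F distribution that follows mean intensity to the variances of all 8327 measured probe sets. It took each variance's tail p and adjusted by Benjamini-Hochberg over all of them, with a threshold of 0.05. The test was tested on simulated data. It asks if pools differed more than is usual at that signal. Python 3.11.15, pandas 2.3.3, numpy 2.4.6 and matplotlib 3.10.9 did the rest. Precision is limited by having 3 arrays.

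The members and lists were chosen with earlier results of these data known. Named beside the members were up to 3 measured genes of each pathway list with the highest mean signal, up to 2 of each marker list where used, and genes that passed the test. Outside this rule, Rgs5, Cdh5, Slc4a1, other mural genes, genes under the floor and those with an unadjusted p under 0.05 were named after their values were seen. No correlation between genes was computed, since 3 arrays are under the 6 it needs. Where genes are grouped by a shared order of pools or a shared crossing of the floor, this was done after their values were seen. Alternatives changed the floor, normalization, filter, variance fit, probe set choice and pools used.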

Additional observations from a re-analysis of the deposited data

How the results depend on the processing

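No member tested passed the test of variability under any of the 10 alternatives (limma). The number tested ran from 4, with the floor at the highest control, to 10, with the floor at the median control or no filter. For the 6 probe sets measured as reported, adjusted p under the alternatives lay from 0.755 to 0.999 (limma). Over all probe sets the calls, 18 as reported, were 52 with no filter, 6 with an ordinary fit, 0 with no intensity trend (limma) and from 4 to 40 with a pool left out. The count of probe sets above the floor on all arrays, 5 as reported, was 4 with the highest control as floor, without Flt1, and 6 with the median control, which added Tek, or without pool 1, which added Pdgfrb. Counts beyond 2-fold rest on the floor. For pool 1 against pool 2 the count was 3 with the median control, and 0 with the highest control or with probe sets above the floor on all arrays. For pool 1 against pool 3 it was 2, 0 and 0, and for pool 2 against pool 3 it was 1 with the median control. The members' median for pool 2 minus pool 3 was -0.14 with the floor at the median control and -0.14 with no filter, where the dim genes enter. For pool 1 minus pool 2 it was 0.10 with the mean of a gene's probe sets, a change of sign. With pool 3 left out, the median of pool 1 minus pool 2 was -0.01. Without pool 2 that of pool 1 minus pool 3 was -0.30, and without pool 1 the remaining pair gave -0.32. Other alternatives moved the medians by less than the typical SD between pools of 0.268. No paired analysis was possible because there is only 1 group. Depth has no counterpart in array signals, and for Tek, Pdgfrb and Vwf, which lie near background, a fold against a pool under its floor is a bound or is not given.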
